A study of Homo sapiens with 6 samples.

Results

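BMP and TGF-beta are secreted growth factors, and the genes described here are 5 of their ligands (BMP2, BMP4, BMP7, TGFB1 and TGFB2) and 5 genes that their signals switch on directly (ID1, ID2, ID3, SMAD6 and SMAD7). They were taken by name from a table of 60664 genes, and all 10 had enough reads to be tested. The set was selected on read counts in shPNISR against shNC, since this difference was known at least for BMP2 and TGFB1 when the genes were listed to ask whether the targets follow BMP2. The values of all 10 in these groups are therefore a description, with no p-values, and where calls among them are counted nothing is read from the count. HCT-8, a line derived from a human colorectal tumour, was transfected with a plasmid carrying a short hairpin RNA against PNISR (shPNISR, 3 libraries) or with a control plasmid (shNC, 3 libraries), and the series asks what PNISR does to splicing. No other agent is named for either group. The labels name 1 plasmid per group, so an effect of lower PNISR and one of the hairpin itself cannot be told apart. Whether each library is a culture of its own is not stated, and the p-values rest on a spread between libraries that may be only technical.

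BMP ligands bind pairs of type I and type II receptor kinases, which phosphorylate SMAD1, SMAD5 and SMAD9, while TGF-beta ligands act in the same way on SMAD2 and SMAD3. Either set of SMAD proteins joins SMAD4 in the nucleus and binds its target genes. In the gut, BMP signalling is strongest toward the differentiated surface of the epithelium, and TGF-beta restrains epithelial growth. The ID genes, which encode inhibitors of basic helix-loop-helix transcription factors, are the classical BMP targets, and SMAD6 and SMAD7 encode the inhibitory SMADs that close a negative feedback loop.

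The sequence just before each target gene is shown because it is where SMAD proteins can meet the gene, and the targets differ in it. Each window runs from 250 bases before to 50 bases after a start site in RefSeq (GRCh38.p14), 5′ to 3′, and for SMAD7, which has 3 listed starts, the one farthest upstream is given. Capitals mark the SMAD-binding sequence CAGAC or its complement GTCTG, the palindrome GTCTAGAC, which is the sequence that SMAD3 and SMAD4 bind best in vitro, and the GC-rich sequence GGCGCC, a site for the BMP-activated SMADs.
ID1, chr20:31605039-31605338, plus strand: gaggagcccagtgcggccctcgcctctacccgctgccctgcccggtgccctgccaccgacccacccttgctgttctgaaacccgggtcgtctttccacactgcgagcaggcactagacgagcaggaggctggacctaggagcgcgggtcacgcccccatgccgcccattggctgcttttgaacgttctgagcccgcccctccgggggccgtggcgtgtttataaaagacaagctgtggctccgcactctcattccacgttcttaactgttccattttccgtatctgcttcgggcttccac
ID2, chr2:8681806-8682105, plus strand: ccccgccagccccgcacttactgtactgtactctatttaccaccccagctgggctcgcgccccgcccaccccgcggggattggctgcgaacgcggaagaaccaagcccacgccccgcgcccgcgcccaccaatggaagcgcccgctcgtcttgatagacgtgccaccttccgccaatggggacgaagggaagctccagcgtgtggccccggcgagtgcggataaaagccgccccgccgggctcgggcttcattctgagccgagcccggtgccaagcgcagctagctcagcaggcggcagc
ID3, chr1:23559452-23559751, minus strand: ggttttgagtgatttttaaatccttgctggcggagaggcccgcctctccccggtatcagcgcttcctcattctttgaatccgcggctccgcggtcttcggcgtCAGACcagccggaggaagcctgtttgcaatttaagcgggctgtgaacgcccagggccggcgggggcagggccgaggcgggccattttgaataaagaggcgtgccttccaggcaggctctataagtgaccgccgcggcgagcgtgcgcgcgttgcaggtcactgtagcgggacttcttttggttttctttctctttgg
SMAD6, chr15:66701986-66702285, plus strand: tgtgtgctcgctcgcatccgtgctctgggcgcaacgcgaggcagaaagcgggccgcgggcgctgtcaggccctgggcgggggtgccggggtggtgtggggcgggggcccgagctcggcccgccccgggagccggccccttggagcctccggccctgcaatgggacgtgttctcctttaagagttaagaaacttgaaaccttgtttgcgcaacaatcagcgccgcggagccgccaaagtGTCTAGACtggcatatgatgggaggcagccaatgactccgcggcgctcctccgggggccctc
SMAD7, chr18:48950916-48951215, minus strand: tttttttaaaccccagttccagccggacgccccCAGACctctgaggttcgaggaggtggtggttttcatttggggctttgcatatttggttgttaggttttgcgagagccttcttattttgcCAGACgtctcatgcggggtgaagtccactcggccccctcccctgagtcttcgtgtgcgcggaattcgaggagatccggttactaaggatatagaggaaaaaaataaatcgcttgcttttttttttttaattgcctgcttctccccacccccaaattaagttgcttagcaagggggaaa
ID1 and ID2 held none of the motifs in this window. ID3 held CAGAC once and this SMAD7 window 2 times, as 45.3% of 35116 promoter windows did at least once. SMAD6 held GTCTAGAC, 12 bases before its start, a sequence found in 0.202% of all windows. GGCGCC, found in 19.2% of windows, was in none of the 5 target windows shown. These are matches of letters on both strands and not sites shown to be used. The BMP-responsive element described for mouse Id1 lies farther upstream than this window.

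PNISR was first checked as the gene the hairpin targets. It was at 18.5, 20.7 and 27.6 CPM (read counts relative to library size) in shPNISR 1 to 3, against 55.3, 50.2 and 62.8 CPM in shNC 1 to 3. The log2 fold change was -1.33 ± 0.15 (SE), so shPNISR held 39.7% of what shNC did (quasi-likelihood test of edgeR, Benjamini-Hochberg adjusted p = 8.73e-05). PNISR shares 117 exon bases with AL513550.1 on the other strand. Total counts ran from 15049485 to 17977803 per library, and 505 of 16102 tested genes (3.14%) were called at an adjusted p of at most 0.05, of which 371 (2.3%) were higher and 134 (0.832%) lower. The shNC 2 library stood apart from the other shNC libraries: on the first principal component (44.8% of the variance) it scored 0.787, against -35.2 and -31.2 for shNC 1 and shNC 3 and 16.9 to 24.6 for shPNISR, so the results below are also given without it where it changes them. The epithelial markers of the cell line were abundant, at a summed 4846 to 6082 CPM over 8 genes in shPNISR and 4345 to 4954 CPM in shNC, and 2 of them (CDH17 and KRT19) rose. The 7 fibroblast markers summed to 25.2 to 29.6 CPM in shPNISR and 16.9 to 25.4 CPM in shNC, the 6 leukocyte markers to 4.08 to 5.57 CPM in shPNISR and 3.53 to 4.85 CPM in shNC, and the 4 endothelial markers to 1.41 to 1.66 CPM in shPNISR and 0.717 to 1.49 CPM in shNC. LYZ, a leukocyte marker, fell to 0.287 ± 0.217 CPM in shPNISR, against 1.21 ± 0.287 CPM in shNC (SD, n = 3 each; edgeR adjusted p = 0.0337). Most of the fibroblast sum was COL1A1, at 23.1 ± 2.68 CPM in shPNISR and 16.2 ± 3.60 CPM in shNC (SD, n = 3 each). COL1A1 did not pass (edgeR adjusted p = 0.0988) and is also in the list of TGF-beta targets below. COL1A2 and PTPRC had 0 reads in every library, and the part of such cells in the results was not tested.

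Among the ligands, BMP2 differed most between the groups. BMP2, a ligand that induces bone and is made by differentiated gut epithelium, was at 12.49, 12.03 and 12.14 CPM in shPNISR 1 to 3, against 3.86, 3.95 and 3.33 CPM in shNC 1 to 3. These rest on 211, 194 and 198 reads in shPNISR and 70, 61 and 50 reads in shNC. Every shPNISR library lay far above every shNC library, and shNC 2 lay with the other shNC libraries. The fitted log2 fold change was 1.71 ± 0.19 (SE), a 3.28-fold higher level in shPNISR, and 1.75 without shNC 2. In RNA from a whole culture, a change in the share of cells that make a transcript and a change in its amount per cell cannot be told apart, here or in any result below.

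BMP4 and BMP7, the other BMP ligands described, stayed within the spread between libraries. BMP4, a close relative of BMP2 that acts through the same receptors, was at 126, 123 and 105 CPM in shPNISR and 119, 89.6 and 121 CPM in shNC, so the groups overlapped (log2 fold change 0.11 ± 0.13, and -0.02 without shNC 2). BMP7, a ligand of another branch of the family, was at 38.0, 31.9 and 31.8 CPM in shPNISR and 32.5, 38.6 and 29.9 CPM in shNC, and shNC 2 was the highest of the 6 (log2 fold change 0.01 ± 0.14, and 0.12 without shNC 2).

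TGFB1, the main TGF-beta ligand of most tissues, was at 138, 130 and 125 CPM in shPNISR and 74.8, 105 and 81.2 CPM in shNC. The groups did not overlap, and shNC 2 was the shNC library nearest to shPNISR. The log2 fold change was 0.59 ± 0.13, a 1.50-fold higher level, and 0.74 without shNC 2. Its exons overlap those of HNRNPUL1 on the other strand over 215 of 3238 bases, and without a known strand setting reads from there cannot be assigned to one gene. TGFB2, a ligand better known from mesenchyme, was at 5.21, 4.03 and 4.78 CPM in shPNISR and 6.85, 6.41 and 4.73 CPM in shNC (log2 fold change -0.36 ± 0.22). The groups overlapped through shNC 3, and 1371 of its 5151 exon bases are shared with TGFB2-OT1 on the same strand.

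**Figure D1:**
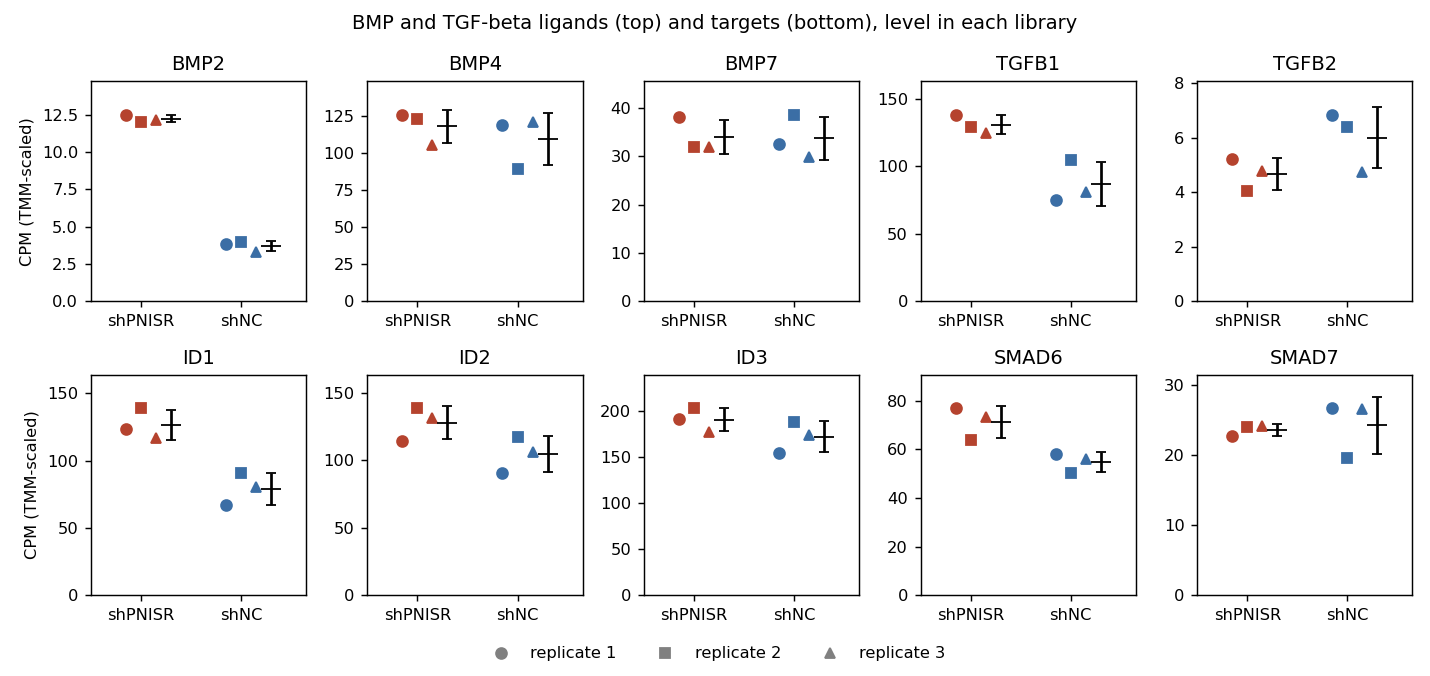
Level of each ligand (top row) and target (bottom row) in TMM-scaled CPM, with 1 point per library (shPNISR left, shNC right; marker shape gives the replicate number) and the mean ± SD of the 3 libraries beside the points. BMP2, TGFB1, ID1 and SMAD6 have no overlap between the groups, and each axis starts at 0 with its own scale.

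Of the 5 targets, ID1 had the largest fitted difference. ID1 was at 124, 139 and 117 CPM in shPNISR 1 to 3, against 66.9, 90.5 and 80.2 CPM in shNC 1 to 3. The lowest shPNISR library lay above the highest shNC library, which was shNC 2. The log2 fold change was 0.68 ± 0.12, a 1.60-fold higher level, and 0.78 without shNC 2.

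ID2 and ID3 stayed closer to shNC. ID2, which is also needed for innate lymphoid cells, was at 114, 138 and 131 CPM in shPNISR and 90.3, 117 and 106 CPM in shNC. The groups overlapped because shPNISR 1 lay just under shNC 2 (log2 fold change 0.29 ± 0.12). ID2, which shares 38 exon bases with ID2-AS1 on the other strand, had a log2 fold change of 0.38 without shNC 2. ID3 was at 191, 203 and 178 CPM in shPNISR and 155, 188 and 174 CPM in shNC, with overlap (log2 fold change 0.15 ± 0.11, and 0.21 without shNC 2).

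The inhibitory SMADs were each described against shNC, and the difference between them was not tested. SMAD6, which blocks mainly BMP signals, was at 76.8, 63.8 and 73.2 CPM in shPNISR and 57.9, 50.1 and 55.9 CPM in shNC. The groups did not overlap (log2 fold change 0.38 ± 0.12, and 0.32 without shNC 2). SMAD7, which blocks both TGF-beta and BMP signals, was at 22.6, 24.0 and 24.0 CPM in shPNISR and 26.6, 19.5 and 26.5 CPM in shNC. All 3 shPNISR values lay inside the shNC range (log2 fold change -0.04 ± 0.15, and -0.18 without shNC 2).

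**Figure D2:**
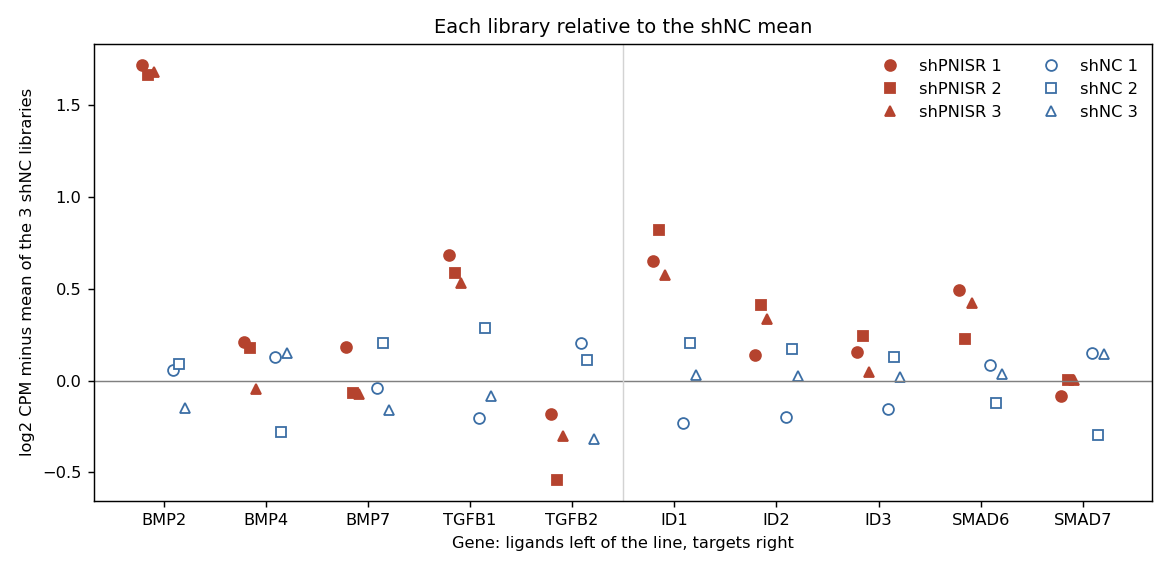
Log2 CPM of each gene in each library minus the mean of the 3 shNC libraries, with shPNISR as filled points left of shNC as open points. For BMP2 the shPNISR points lie at 1.67 to 1.72, for ID1 at 0.57 to 0.82 and for SMAD7 at -0.08 to 0.01.

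Set against BMP2, the targets ran from a level inside the shNC range to a 1.60-fold higher level. BMP2 lay 1.67 to 1.72 above the shNC mean on the log2 scale in the 3 shPNISR libraries. ID1 lay 0.57 to 0.82 above it, SMAD6 0.23 to 0.49, ID2 0.14 to 0.41, ID3 0.05 to 0.24, and SMAD7 -0.08 to 0.01. Within shPNISR, ID1, ID2 and ID3 were highest in shPNISR 2, where BMP2 was lowest by a small margin, while BMP2 and SMAD6 were highest in shPNISR 1. With 3 libraries a group, no correlation between BMP2 and a target was computed, and whether the fold changes of any pair of genes differ was not tested. ID1, ID2 and ID3 were each highest in shPNISR 2 and, among shNC libraries, in shNC 2, and lowest in shNC 1. Among shNC libraries BMP2 was also highest in shNC 2, by a small margin (3.95 CPM, against 3.86 CPM in shNC 1), and lowest in shNC 3 (3.33 CPM).

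Of the 10 genes, 3 rose (BMP2, TGFB1 and ID1), none fell and 7 did not pass, against 3.14% of all tested genes called in either direction. Without shNC 2 the count was 4, with ID2 added, against 12.3% of all tested genes. At an unadjusted p under 0.05 in edgeR 5 were higher and 0 lower, against 17.8% of all tested genes in either direction, and DESeq2 and limma voom also called 3 higher and 0 lower, against 4.38% and 3.53% of all genes called by those tools. In 4 of the 10 every shPNISR value lay above every shNC value and in 0 below, against 11.5% and 9.58% of all tested genes, or 21.1% in either direction. Their median log2 fold change was 0.22, and that of all tested genes was -0.01. A correction for GC content and length, added after seeing the data, brought the median of the 10 to 0.12. With this correction and without shNC 2, BMP2, TGFB1 and ID1 were called higher and ID2 was not. The genes were chosen with this contrast known, so nothing is read from these counts. The call of TGFB1 ended without shNC 1, shPNISR 1 or shPNISR 3 (log2 fold change 0.49, 0.56 and 0.62). Those fits called 1.21%, 0.994% and 1.52% of all tested genes. Over the 17 alternative settings described below, the log2 fold change of TGFB1 ran from 0.41 to 0.74. The range was 0.20 to 0.38 for ID2 and 0.0054 to 0.21 for ID3. It was 0.20 to 0.45 for SMAD6 and -0.31 to 0.034 for SMAD7.

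Levels can be ranked between genes only per length of exon. In CPM per kb of exon, shPNISR libraries held most ID3 and ID1, at 106 ± 7.02 and 103 ± 9.08 (SD, n = 3), which did not differ beyond their spread. They were followed by ID2 at 58.0 ± 5.55, then TGFB1 at 40.4 ± 2.15 and BMP4 at 38.3 ± 3.65, again within their spread. SMAD6 (8.32 ± 0.783), BMP7 (6.26 ± 0.654), SMAD7 (4.68 ± 0.161), BMP2 (3.39 ± 0.0671) and TGFB2 (0.908 ± 0.116) came last, in CPM per kb. In shNC the order was ID3 (95.8 ± 9.32), ID1 (64.2 ± 9.59), ID2 (47.3 ± 6.07), BMP4 (35.6 ± 5.69) and TGFB1 (26.9 ± 4.94), then SMAD6, BMP7 and SMAD7 at 6.38 ± 0.473, 6.21 ± 0.822 and 4.81 ± 0.811. TGFB2 and BMP2 closed it at 1.16 ± 0.217 and 1.03 ± 0.0932 and did not differ beyond their spread. In shNC 2 TGFB1 (32.5) lay above BMP4 (29.1), and BMP7 (7.12) above SMAD6 (5.85). The order within these pairs was therefore not the same in every shNC library.

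BMP2 made up a small part of the summed BMP2, BMP4 and BMP7 transcripts in both groups. Other BMP ligands with reads, such as BMP6 and BMP8B, are not in this sum. Of the summed CPM per kb of BMP2, BMP4 and BMP7, BMP2 made up 6.75%, 6.79% and 7.77% in shPNISR 1 to 3, against 2.35%, 2.94% and 2.02% in shNC 1 to 3. The sum itself was 51.4, 49.2 and 43.4 CPM per kb in shPNISR and 45.6, 37.3 and 45.7 CPM per kb in shNC, with overlap between the groups. The genes are spread over the genome. In GRCh38, BMP2 (chr20:6767664-6780280, plus strand), ID1 (chr20:31605283-31606515, plus strand) and BMP7 (chr20:57168748-57266629, minus strand) share chromosome 20, and of these BMP7 overlapped between the groups.

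Genes with a profile like that of BMP2 were sought over the 6 libraries by the root mean square difference between centred log2 CPM values. The 5 nearest, among genes with a mean of at least 1 CPM over the 6 libraries, were CACNA2D4, a calcium channel subunit (0.16), CYP2B6, a drug-metabolising enzyme (0.16), FABP3, a fatty acid binding protein (0.18), AGT, the angiotensin precursor (0.19), and AOAH, a lipase that inactivates bacterial lipopolysaccharide (0.19). CACNA2D4 was at 4.5, 4.84 and 3.92 CPM in shPNISR and 1.55, 1.29 and 0.932 CPM in shNC. CYP2B6, AGT and AOAH averaged 0.431, 0.912 and 0.622 CPM in shNC and reached that mean through shPNISR, so the filter itself favoured genes with the BMP2 pattern. With a smaller prior count, 2 of the 5 stayed nearest. By the same measure ID1 ranked 383, TGFB1 500, SMAD6 1243, ID2 1876 and ID3 3463 of 14323 genes. BMP4 ranked 4649, BMP7 5794, SMAD7 7633 and TGFB2 12750. The measure takes in the difference between the groups, which was known when these genes were chosen. Nothing is therefore read from these ranks.

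The other genes of the pathway were described by role, from 10 lists that hold 122 genes, of which 98 passed the filter on low counts. Of these 98, 2 rose and 1 fell, which is 3.06%, close to the 3.14% of all tested genes. The counts at an unadjusted p under 0.05 given below by role are to be read against the 17.8% of all tested genes that reached it in edgeR. Their median log2 fold change was 0.02. All 3 called genes were in the list of TGF-beta targets.

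Among 17 further BMP and GDF ligands, 9 were tested and none passed in edgeR, DESeq2 or limma voom, with 3 at an unadjusted p under 0.05 in edgeR. GDF15, a stress-induced member of the family, was at 179, 195 and 163 CPM in shPNISR and 73.6, 151 and 89.7 CPM in shNC (edgeR adjusted p = 0.159). The groups did not overlap, shNC 2 lay nearest to shPNISR, and without shNC 2 the gene rose (log2 fold change 1.13, edgeR adjusted p = 7.13e-06, range over alternatives 9.97e-07 to 0.464). GDF11, a ligand close to myostatin, averaged 63.9 ± 4.82 CPM in shPNISR and 59.8 ± 0.910 CPM in shNC (SD, n = 3 each). BMP8A and BMP8B, close copies that can share reads, did not pass with all 6 libraries, and BMP8B was called higher without shNC 2. AMH, the anti-Müllerian hormone, named after its values were seen, was at 3.08, 3.04 and 3.92 CPM in shPNISR and 5.74, 3.95 and 6.13 CPM in shNC and was called lower without shNC 2 or after the GC and length correction. Of 11 other TGF-beta, activin and nodal ligands only 3 were tested, and 0 passed in any of the 3 tools and 0 had an unadjusted p under 0.05. INHBB and TGFB3, the ones with most reads, averaged 2.44 ± 0.338 and 2.38 ± 0.560 CPM in shPNISR and 3.18 ± 0.463 and 2.74 ± 0.919 CPM in shNC. INHBA, which encodes the activin A subunit, was not tested and had 3, 5 and 9 reads in shPNISR and 2, 21 and 3 reads in shNC.

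None of the 18 receptors and SMAD transducers passed in edgeR, while 3 had an unadjusted p under 0.05, a share near that of all tested genes (17.8%). Their median log2 fold change was -0.09, and 6 of 18 had a fitted value above 0. Among type I receptors, ACVR1B (51.9 ± 5.00 CPM in shPNISR and 54.9 ± 9.58 CPM in shNC) and TGFBR1 (36.4 ± 2.78 CPM in shPNISR and 38.8 ± 5.76 CPM in shNC) had the highest CPM. ACVRL1, an endothelial receptor for BMP9 and BMP10 named here after its values were seen, was at 4.86, 3.91 and 5.21 CPM in shPNISR and 1.88, 3.11 and 2.46 CPM in shNC, without overlap (edgeR adjusted p = 0.0557). DESeq2 called it higher. Among type II receptors, TGFBR2 averaged 71.0 ± 4.57 CPM in shPNISR and 62.3 ± 1.98 CPM in shNC, and ACVR2B 34.8 ± 4.86 CPM in shPNISR and 39.8 ± 5.71 CPM in shNC. BMPR2, the main BMP type II receptor and also named after its values were seen, was at 30.4, 23.5 and 32.2 CPM in shPNISR and 40.5, 41.2 and 37.6 CPM in shNC. Every shPNISR library was below every shNC library (log2 fold change -0.47 ± 0.14, edgeR adjusted p = 0.0678), and DESeq2 called it lower. Among the SMAD transducers, SMAD5 averaged 62.9 ± 10.1 CPM in shPNISR and 80.6 ± 5.75 CPM in shNC (edgeR adjusted p = 0.136), and SMAD3 74.3 ± 7.58 CPM in shPNISR and 64.9 ± 7.75 CPM in shNC. Without shNC 2, ACVRL1 rose while BMPR2 and SMAD5 fell (log2 fold changes of 1.10, -0.45 and -0.41). Without shNC 1 they did not pass (0.74, -0.46 and -0.30, edgeR adjusted p = 0.301, 0.235 and 0.511). That fit called 1.21% of all tested genes, against 3.14% in the main fit. BMPR2 was also called lower without shNC 3 and with no filter on low counts (edgeR adjusted p = 0.0459 and 0.0267). With no such filter ACVRL1 was called higher (edgeR adjusted p = 0.0232).

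Of 8 tested co-receptors none passed in edgeR (2 at an unadjusted p under 0.05), and DESeq2 called NRP1 lower. NRP1, a co-receptor for semaphorins, VEGF and TGF-beta, averaged 25.8 ± 1.64 CPM in shPNISR and 38.0 ± 9.79 CPM in shNC (edgeR adjusted p = 0.0718), and shNC 2, at 27.7 CPM, lay by shPNISR. NEO1, a co-receptor bound by repulsive guidance molecules, averaged 93.6 ± 15.6 CPM in shPNISR and 94.4 ± 19.6 CPM in shNC. Of 15 tested extracellular antagonists and latency proteins none passed in edgeR (2 at an unadjusted p under 0.05). The secreted follistatin-like protein FSTL1 was at 86.0, 83.1 and 84.9 CPM in shPNISR and 112, 114 and 104 CPM in shNC, without overlap (edgeR adjusted p = 0.0578), and DESeq2 called it lower. LTBP4, which holds latent TGF-beta in the matrix, averaged 64.4 ± 7.10 CPM in shPNISR and 54.4 ± 13.9 CPM in shNC. Without shNC 2, LTBP4 and the BMP antagonist CHRDL1 rose (log2 fold changes of 0.47 and 1.03) while NRP1 and FSTL1 fell (-0.75 and -0.35). Without shNC 1, where 1.21% of all tested genes were called, none of them passed. LTBP4 and CHRDL1 were then at 0.15 and 1.03 (edgeR adjusted p = 0.863 and 0.183), and NRP1 and FSTL1 at -0.37 and -0.36 (edgeR adjusted p = 0.439 and 0.253). NRP1 was also called lower without shNC 3 (edgeR adjusted p = 0.048). With no filter on low counts NRP1 and FSTL1 were both called lower (edgeR adjusted p = 0.00513 and 0.0494). GREM1, a BMP antagonist of gut stroma, had at most 4 reads in any library and was not tested. Of 12 intracellular inhibitors none passed in edgeR, DESeq2 or limma voom, with 3 at an unadjusted p under 0.05 in edgeR. FKBP1A, which holds type I receptors inactive, averaged 289 ± 20.9 CPM in shPNISR and 282 ± 11.9 CPM in shNC. SKI, a corepressor of SMAD proteins, averaged 84.6 ± 6.86 CPM in shPNISR and 104 ± 12.5 CPM in shNC (edgeR adjusted p = 0.18), and after the GC and length correction it was called lower (log2 fold change -0.41, and -0.48 without shNC 2 as well). TGIF1, NEDD4L and WWP1 were called higher and TGIF2 lower with that correction and without shNC 2. BAMBI, a decoy receptor that BMP and Wnt signals induce, averaged 44.6 ± 3.23 CPM in shPNISR and 36.7 ± 4.73 CPM in shNC (edgeR adjusted p = 0.262).

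None of the 12 other tested BMP target genes passed in edgeR, DESeq2 or limma voom, and in edgeR 0 had an unadjusted p under 0.05. Their median log2 fold change was 0.00, and without shNC 2 only HES1, a Notch and BMP target, was called, as higher. With the GC and length correction and without shNC 2, HES1 was called higher and NKX2-5 lower. HEY1 and MSX2, transcription factors of development, averaged 154 ± 7.32 and 68.2 ± 1.00 CPM in shPNISR and 156 ± 16.0 and 64.8 ± 8.75 CPM in shNC. ID4, the remaining ID gene, was at 44.4, 49.6 and 53.7 CPM in shPNISR and 46.6, 55.6 and 53.3 CPM in shNC, with overlap (log2 fold change -0.07 ± 0.12). ATOH8, a BMP-induced helix-loop-helix factor, was at 2.61, 2.79 and 1.96 CPM in shPNISR and 0.938, 2.01 and 1.80 CPM in shNC, with overlap (log2 fold change 0.65 ± 0.32, edgeR adjusted p = 0.296). The list also held ZCCHC12, which is better described as a coactivator of BMP signalling than as a target.

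**Figure D3:**
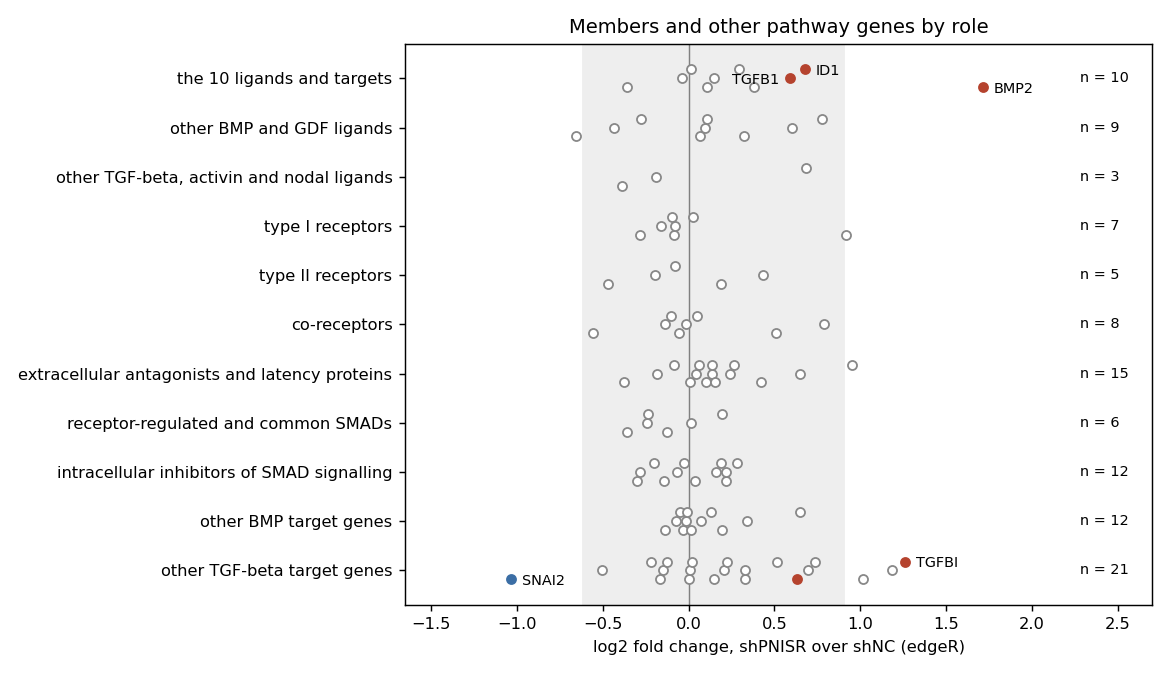
Log2 fold change (shPNISR over shNC) of the 10 ligands and targets and of the other tested pathway genes by role, with 1 point per gene and its number per row. Filled points passed at an adjusted p of at most 0.05 (red higher, blue lower; 1 of them carries no name), and the grey band holds the middle of all 16102 tested genes, from -0.61 to 0.90.

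TGF-beta target genes held the calls outside the 10. Of 21 tested, 2 rose, 1 fell and 18 did not pass. So 14.3% were called, against 3.14% of all tested genes, and the median log2 fold change was 0.21. This list was chosen with earlier results of these data known, so nothing is read from that share. TGFBI, a matrix protein named for its induction by TGF-beta, was at 24.7, 28.7 and 24.9 CPM in shPNISR and 10.1, 12.4 and 10.1 CPM in shNC (log2 fold change 1.26 ± 0.15, edgeR adjusted p = 0.000161). SNAI2, a repressor of epithelial genes, fell to 9.89, 11.3 and 9.87 CPM in shPNISR, against 16.7, 25.1 and 21.9 CPM in shNC (log2 fold change -1.03 ± 0.17, edgeR adjusted p = 0.00207). SNAI1, its relative, was at 4.80, 5.40 and 5.40 CPM in shPNISR and 3.42, 2.91 and 3.00 CPM in shNC and did not pass (edgeR adjusted p = 0.0746). The matricellular target genes CCN2 and THBS1 averaged 15.6 ± 1.97 and 59.9 ± 3.26 CPM in shPNISR and 17.0 ± 1.78 and 51.9 ± 4.49 CPM in shNC, and neither passed.

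BHLHE40, named after its values were seen, was at least as high in shNC 2 as in shPNISR. BHLHE40, a hypoxia and TGF-beta induced repressor, was at 64.9, 70.3 and 65.1 CPM in shPNISR and 19.3, 87.9 and 16.8 CPM in shNC. With all 6 libraries it did not pass (edgeR adjusted p = 0.704), and without shNC 2 it rose (log2 fold change 1.88, edgeR adjusted p = 1.42e-08, range over alternatives up to 0.943). Of the 21 targets, 14 were higher in shNC 2 than in both other shNC libraries. The same count was not made over all tested genes, so it is not read as a trait of these targets. Without shNC 2, 9 of the 21 rose and 1 fell. Over all 99 tested pathway genes 15 rose and 6 fell, which is 21.2%, against 12.3% of all tested genes in that fit. The lists were chosen with earlier results known, so nothing is read from these shares either.

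**Figure D4:**
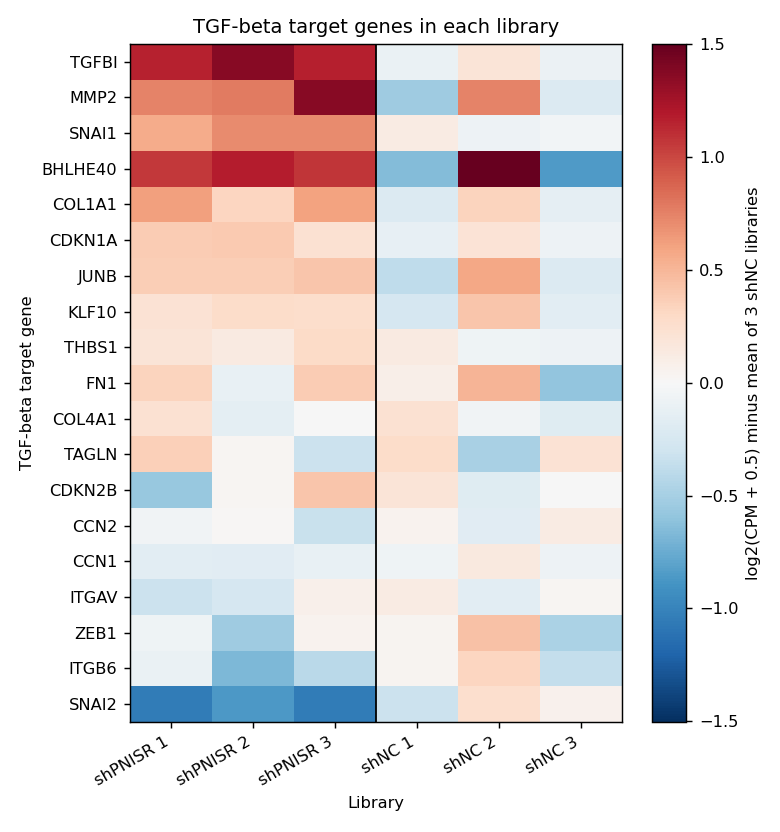
Level of 19 of the 21 TGF-beta target genes in each library, as log2(CPM + 0.5) minus the mean of the 3 shNC libraries, ordered by fold change, with red above and blue below that mean. BHLHE40 lies at 1.50 in shNC 2, above shPNISR as well as shNC 1 and shNC 3, while TGFBI lies at 0.19 there.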

How the data were processed

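RNA from 6 HCT-8 libraries was sequenced, 3 with shPNISR and 3 with shNC, and columns were matched to libraries by title. The deposited values are whole-number read counts per Ensembl gene ID, not normalized. Reads were aligned with HISAT2 2.0.4 to GRCh38, per the submitters' processing notes. For the counting tool, its annotation and its strand handling the sources used here give nothing. Of 60664 IDs, 60463 had a symbol, and pathway genes were found by symbol or by an older name.

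Genes were filtered with filterByExpr (minimum count 10, minimum total count 15), scaled with TMM factors and tested with edgeR 4.0.16 in R 4.3.3 (robust quasi-likelihood, two-sided, Benjamini-Hochberg over all 16102 genes, threshold 0.05). CPM values are TMM-scaled, log2 CPM used a prior count of 2, and each standard error is the fold change divided by the root of its F statistic. Exon lengths, positions and GC content came from GENCODE 29 on GRCh38, and promoters from RefSeq, which held 8 of the 10 genes (BMP2 and BMP7 are not shown). The test was also run on simulated counts with the same dispersion for every gene and no library set apart. That run does not cover a library like shNC 2, and nothing here rests on it. The 10 genes, the lists and the promoter motifs were chosen with earlier results of these data known. Named pathway genes are up to 4 called genes per list by adjusted p, or the 2 of highest CPM where none passed; others were chosen after their values were seen. Some genes of the lists enter the counts but are not reported here by name. No library repeated another of its group (chi-square per degree of freedom 9.10 to 20.8), so all were kept. Alternatives were other scalings (DESeq2 size factors, upper-quartile factors, library totals), other filters, DESeq2 1.42.0, limma voom 3.58.1, no robust dispersion, a replicate block, each library left out, and, added after seeing the data, a loess correction (span 0.4) for GC content and length with and without shNC 2.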

Additional observations from a re-analysis of the deposited data

How the results depend on the processing

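Over the 17 alternatives the log2 fold change was 1.64 to 1.75 for BMP2 and 0.50 to 0.78 for ID1. Of the 10 genes, 2 to 4 rose and 0 fell when each library was left out in turn. Over all genes, the same exercise gave 133 to 1284 higher and 30 to 746 lower calls, and among the other pathway genes 1 to 15 and 1 to 6, with the top of each range reached without shNC 2. Library totals gave 71 lower calls over all genes. With no filter on low counts there were 642 and 354 calls over all genes and 6 and 4 in the pathway. DESeq2 gave 229 lower calls over all genes and 4 in the pathway. Correction for GC content and length gave 3 lower pathway calls, and without shNC 2 as well it gave 18 and 6 in the pathway and 1277 and 981 over all genes. Of the 5 genes most like BMP2, 2 were kept with a prior count of 0.5. The cause of these shifts was not tested.

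Log2 fold changes near 0, none of them called, changed sign. Upper-quartile factors gave 0.0088 for NEO1 and 0.0084 for HEY1. The GC and length correction gave -0.062 for BMP7, 0.051 for TGFBR1 and 0.031 for NEO1. Without shNC 2 as well, it gave -0.11 for BMP4, 0.014 for ACVR1B, 0.012 for ACVR2B, 0.13 for NEO1, 0.079 for HEY1 and -0.032 for MSX2. Leaving out a library gave -0.025 to 0.18 for BMP4, -0.071 to 0.12 for BMP7, -0.18 to 0.034 for SMAD7, -0.39 to 0.11 for TGFB3, -0.17 to 0.064 for ACVR1B, -0.19 to 0.025 for TGFBR1, -0.17 to 0.11 for NEO1, -0.0046 to 0.097 for FKBP1A, -0.089 to 0.058 for HEY1, -0.037 to 0.14 for MSX2 and -0.15 to 0.0021 for ID4.

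Replicate numbers were not used to pair the libraries. The correlations of same-numbered libraries were 0.155, -0.109 and -0.173, and not every library correlated best with its own number. Each group was centred on its own mean of 3 libraries, which ties these correlations to each other. They therefore cannot show whether same-numbered libraries share a batch. A replicate block gave 3 higher and 0 lower calls among the 10 genes, 3 and 1 in the pathway, with GDF15 added, and 3.15% of all genes. Genes at 2 to 5 CPM rest on few reads a library, so small changes in them were not detectable at this depth.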
